A study of Homo sapiens with 6 samples.

Results

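Interferon response and signalling genes were followed in U87 cells, a human glioblastoma cell line, with and without a dominant negative form of the stress sensor IRE1alpha. The set was a fixed list of 43 genes, chosen by name with earlier results of these data known. It held 4 interferon receptor chains, 4 STAT and IRF transcription factors and 35 effectors. Of the 43 genes, 41 had a probe set naming that gene alone, out of 11963 such genes on the array. No probe set was named for STAT2 or IFI30 in the annotation used here. The series holds 6 arrays of total RNA, 1 per sample. The 3 U87 IRE1dn arrays came from a clone (U87 IRE1.NCK DN) that expresses a dominant negative transgene of IRE1alpha, and the 3 U87ctrl arrays from cells carrying the empty plasmid. The transgene's promoter is not given in the sources used here. All cells were grown for 16 h in DMEM with 10% FBS, and no interferon or other agent is named in the labels. The IRE1dn cells are labelled as 1 clone, so an effect of the transgene and a property of that clone cannot be told apart. Whether the replicates were separate cultures is not stated; if they were not, the p-values below reflect technical spread alone.

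Interferons are secreted proteins that warn cells of infection. Type I interferons bind a receptor of the chains IFNAR1 and IFNAR2, and interferon gamma binds one of IFNGR1 and IFNGR2. Receptor-bound JAK kinases then activate STAT factors. A complex of STAT factors with IRF9 binds a DNA element, the interferon-stimulated response element (ISRE), in front of many antiviral genes. IRE1alpha, encoded by ERN1, is a sensor of endoplasmic reticulum stress that splices the XBP1 transcript. Many tumour cell lines hold a low level of these genes without added interferon.

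Promoters are shown for 5 members to set the element beside the direction of change. Of the 41 members, 30 had a promoter in the RefSeq table of GRCh38.p14, a window from 250 bases before to 50 bases after the start site. Capitals mark each match to GAAA, any 2 bases and again GAAA, the core of the ISRE, on either strand, and overlapping matches run together. IFI44L and IFI44 were lower in IRE1dn cells, IFITM3 was higher, ISG15 did not pass the test, and IFI16 was lower with no match in this window.
IFI44L, chr1:78620198-78620497, plus strand: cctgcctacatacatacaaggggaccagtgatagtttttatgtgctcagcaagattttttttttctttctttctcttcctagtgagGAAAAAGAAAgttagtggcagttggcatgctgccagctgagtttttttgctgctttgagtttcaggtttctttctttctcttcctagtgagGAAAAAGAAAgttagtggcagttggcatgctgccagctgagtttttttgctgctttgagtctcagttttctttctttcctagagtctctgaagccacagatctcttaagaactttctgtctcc
IFI44, chr1:78649539-78649838, plus strand: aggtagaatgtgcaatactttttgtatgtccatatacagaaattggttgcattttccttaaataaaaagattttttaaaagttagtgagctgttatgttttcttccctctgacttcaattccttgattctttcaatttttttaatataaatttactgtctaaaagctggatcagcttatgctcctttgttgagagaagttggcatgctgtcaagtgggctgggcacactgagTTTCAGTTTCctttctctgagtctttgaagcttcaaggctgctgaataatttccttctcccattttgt
IFITM3, chr11:320811-321110, minus strand: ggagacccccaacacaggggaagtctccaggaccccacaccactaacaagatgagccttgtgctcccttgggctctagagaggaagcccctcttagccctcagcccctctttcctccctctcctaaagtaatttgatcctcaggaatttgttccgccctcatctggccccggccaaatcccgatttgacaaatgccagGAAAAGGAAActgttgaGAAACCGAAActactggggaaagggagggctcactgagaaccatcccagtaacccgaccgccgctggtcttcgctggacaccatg
ISG15, chr1:1013247-1013546, plus strand: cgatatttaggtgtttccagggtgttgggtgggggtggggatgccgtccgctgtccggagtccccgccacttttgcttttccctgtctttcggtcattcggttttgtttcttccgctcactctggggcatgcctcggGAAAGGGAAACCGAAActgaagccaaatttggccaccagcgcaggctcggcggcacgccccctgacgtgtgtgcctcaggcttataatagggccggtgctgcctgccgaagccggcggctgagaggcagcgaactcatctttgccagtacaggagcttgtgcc
IFI16, chr1:159008741-159009040, plus strand: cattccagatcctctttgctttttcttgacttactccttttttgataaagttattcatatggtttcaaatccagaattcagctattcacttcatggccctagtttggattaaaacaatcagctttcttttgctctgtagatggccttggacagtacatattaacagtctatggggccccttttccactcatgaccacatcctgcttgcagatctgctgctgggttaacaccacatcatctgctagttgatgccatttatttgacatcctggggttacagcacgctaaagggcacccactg

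The 2 matches in the IFI44L promoter began 164 and 73 bases upstream of the start site, and those of IFITM3 began 52 and 35 bases upstream. The 2 overlapping matches of ISG15 began 113 and 107 bases upstream, and the match of IFI44 18 bases upstream on the other strand. Over all 35116 promoters of this length, 3.57% held the ISRE core. At the level of genes, 18 of the 30 members held it in at least 1 listed promoter. Of all 27305 genes with a promoter, 4.38% did so. Among tested genes it was in 11 of 22 members and in 239 of all 6029 (3.96%). The element lay in members of every outcome: 2 of 6 that were lower, 1 of 3 that were higher, 8 of 13 that did not pass and 7 of 8 too dim to be tested. The other motif searched, the gamma-activated site TTCNNNGAA, which reads the same on both strands, was in 9 of the 30 members, 5 of them too dim to be tested. Of all genes with a promoter, 9.38% held this motif. Among tested genes it was in 4 of 22 members (18.2%) and in 545 of all 6029 (9.04%). A match describes letters in this window and says nothing of a factor's binding.

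Signal intensities had been scaled to a 2% trimmed mean of 100.03 units on each array, and array medians lay between 18.4 and 21.03 units. Of the 11963 genes, 7178 had a mean log2 signal above the filter level, which equals 12.97 units, and were tested. The targeted gene ERN1 measured 11.0, 14.0 and 11.9 units on control arrays 1 to 3 and 9.89, 10.5 and 12.9 on IRE1dn arrays 1 to 3. These values lie close to that level and need not include the transgene, so they do not check the labels. XBP1 measured 232 ± 31.3 units in controls and 123 ± 8.97 in IRE1dn cells (SD, n = 3 each). Correlations of log2 signals over the 7178 genes were 0.976 to 0.984 among IRE1dn arrays, 0.939 to 0.954 among controls and 0.841 to 0.886 between the groups. Of 7 markers of glioma and mesenchymal cells, VIM, CD44, TNC, CHI3L1 and NES were above the level in the mean and the astrocyte markers GFAP and S100B were not, at 1.902 units or less on every array. All 7 leukocyte markers with a probe set, 3 endothelial and 3 epithelial markers were under the filter level. The summed signal of the leukocyte markers was 18.8 to 26.4 units in controls and 16.1 to 22.4 in IRE1dn cells, that of the endothelial markers 11.5 to 20.6 and 7.15 to 10.4, and that of the epithelial markers 9.72 to 17.2 and 3.76 to 6.54. The endothelial and epithelial sums were thus lower in IRE1dn cells, mostly through PECAM1 (means of 12.1 units in controls and 4.51 in IRE1dn cells) and EPCAM (9.74 and 2.57). The other markers of these lists were dimmer and did not go 1 way. CDH5 (1.96 and 1.65) and CDH1 (2.25 and 1.04) were lower in the mean, and VWF (1.41 and 2.73) and KRT5 (1.02 and 1.76) higher. The part of these sums in the results was not tested. Of the 5 tested glioma markers, TNC and CHI3L1 were higher in IRE1dn cells.

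The interferon genes did not move as a block. Of 31 members tested, 8 were lower and 4 higher in IRE1dn cells at a limma adjusted p under 0.05, and 19 did not pass. Over all 7178 genes 34.4% passed, 16.5% lower and 17.9% higher; among the members 25.8% were lower and 12.9% higher. The median log2 difference was -0.21 over the 31 tested members and -0.19 over all 41 with a probe set, against 0.01 over all genes tested. For 3 tested members (RIGI, IFI44L and IFIT1) only 1 of the group means lay above the filter level. The arrays of the groups did not overlap for 10 members with lower and 7 with higher values, where 24.2% and 26.0% of all genes did so, 50.2% in all. By role, 1 of 4 receptors was lower and 1 higher, 0 of 3 IRF factors passed, and 7 of 24 tested effectors were lower and 3 higher. Median log2 differences were -0.15 for receptors, -0.28 for IRF factors and -0.20 for effectors. In bulk RNA, fewer cells with a transcript and less of it per cell cannot be told apart.

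**Figure D1:**
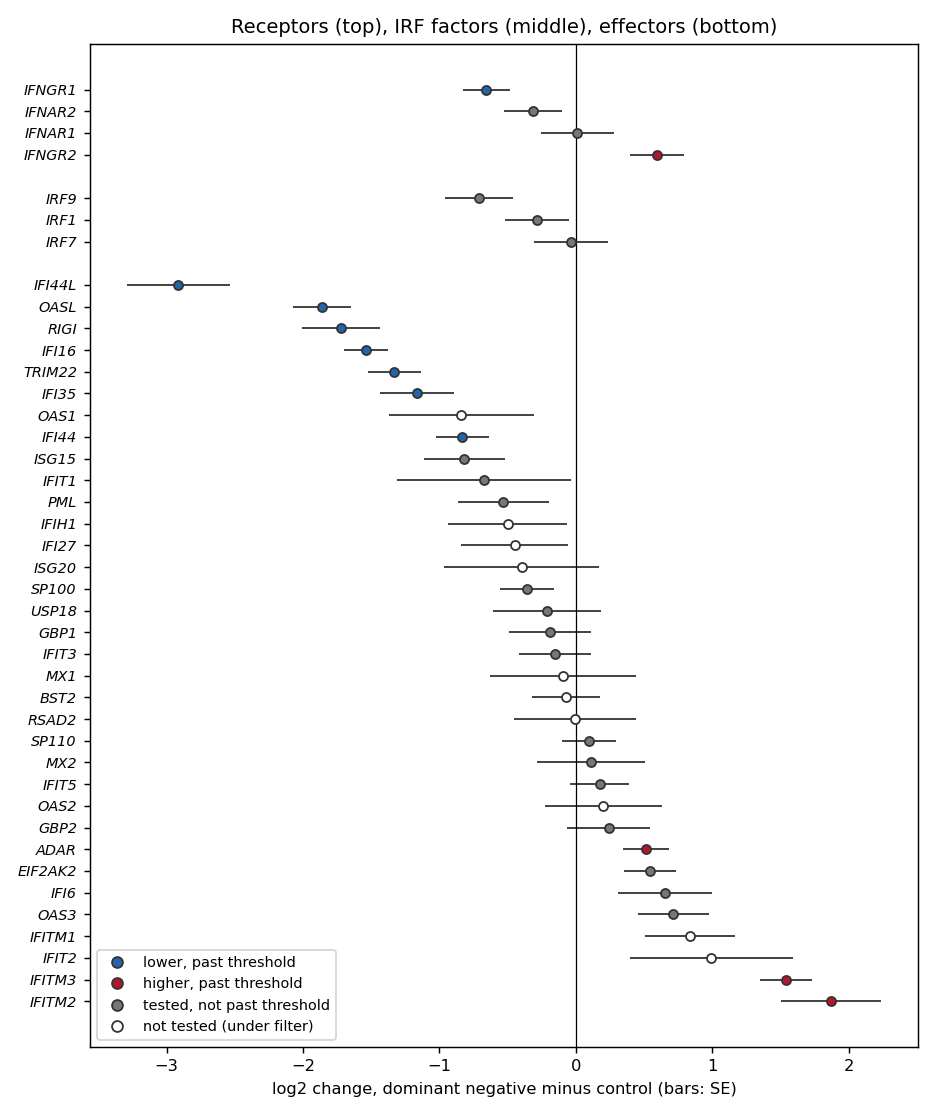
Log2 difference (IRE1dn minus control, horizontal axis, bars are SE) of the 41 members with a probe set, with receptors at the top, IRF factors in the middle and effectors below; blue and red points passed the threshold, grey points did not and open points were too dim to be tested. Differences of tested members run from -2.91 (IFI44L) to 1.87 (IFITM2), and the IRF factors lie between -0.71 and -0.03.

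Of the 4 receptor chains, only the 2 of the interferon gamma receptor passed, 1 lower and 1 higher. IFNGR1, the chain that binds interferon gamma, measured 155, 155 and 141 units on control arrays 1 to 3 and 103, 94.3 and 87.3 on IRE1dn arrays 1 to 3. Every IRE1dn array was below every control. The change was from 150.4 ± 7.74 to 94.98 ± 8.08 units (SD, n = 3 each), -0.66 on the log2 scale (SE 0.17; adjusted p = 0.016 by limma). Its other probe set, dimmer, had a log2 difference of -0.63 (SE 0.26). The call was lost on leaving out IRE1dn array 2 (adjusted p = 0.074 by limma) or 3 (0.078).

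IFNGR2, the signalling partner of that receptor, measured 169.7, 192 and 201 units in controls and 248, 370.5 and 248 in IRE1dn cells. All 3 IRE1dn arrays were higher, and array 2 was the highest. The mean rose from 187 ± 15.9 to 289 ± 70.8 units (SD, n = 3 each). The log2 difference was 0.60 (SE 0.20; adjusted p = 0.043 by limma). This call was close to the threshold. It was lost when any 1 array other than control array 3 was left out (adjusted p from 0.060 to 0.21 by limma), with no filter (0.058), with arrays set to equal medians (0.074) and without the intensity trend (0.058).

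The type I chains overlapped between the groups. IFNAR1, at 20.3, 20.1 and 15.95 units in controls and 14.9, 19.5 and 22.8 in IRE1dn cells, had a log2 difference of 0.01 (SE 0.27; adjusted p = 0.98 by limma). IFNAR2, the chain that binds type I interferons with high affinity, measured 88.9, 69.7 and 108 units in controls and 62.5, 77.6 and 71.0 in IRE1dn cells. Its log2 difference was -0.31 (SE 0.22; adjusted p = 0.29 by limma), and that of its second, dimmer probe set was 0.20 (SE 0.38). In RefSeq GRCh38.p14 the genes IFNAR2, IL10RB, IFNAR1 and IFNGR2 follow each other on chromosome 21 with 0 coding genes between neighbours. Of these 4 neighbours, IL10RB was lower (as given with the signalling genes), IFNGR2 was higher and the other two did not pass.

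None of the 3 measured IRF factors passed in limma, and 1 of them, IRF9, had an unadjusted p under 0.05. IRF9, the DNA-binding partner of the STAT factors, measured 92.3, 74.5 and 51.2 units in controls and 37.0, 43.5 and 47.9 in IRE1dn cells. The groups did not overlap, although control array 3 lay close to the IRE1dn arrays. The means were 72.7 ± 20.6 and 42.8 ± 5.47 units (SD, n = 3 each), with a log2 difference of -0.71 (SE 0.25; adjusted p = 0.052 by limma). IRF9 passed in 5 of the settings that tested it, among them without control array 3 and with either other scaling of the arrays.

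IRF1, a factor induced early by interferon gamma, measured 41.9, 50.1 and 65.3 units in controls and 48.2, 38.0 and 40.5 in IRE1dn cells (log2 difference -0.28, SE 0.23; adjusted p = 0.37 by limma). IRF7, the factor that amplifies type I interferon production, measured 25.1, 21.1 and 26.8 units in controls and 16.95, 28.4 and 27.2 in IRE1dn cells (-0.03, SE 0.27; adjusted p = 0.94 by limma). Both overlapped between the groups.

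Of the 12 members past the threshold 10 were effectors, and IFI44L had the largest difference of all 31 tested. IFI44L, an interferon-induced protein of little-known function, measured 126, 59.6 and 45.4 units in controls and 6.02, 7.31 and 10.5 in IRE1dn cells. Controls differed among themselves, with array 1 the highest, but every IRE1dn array was under the filter level. The log2 difference was -2.91 (SE 0.38; adjusted p = 0.00060 by limma), and -1.87 with a pseudocount of 16 in place of 1.75. Its neighbour and relative IFI44, next to it on chromosome 1 with 0 coding genes between, was also lower. IFI44 measured 189.7, 139 and 177 units in controls and 105, 83.5 and 92.8 in IRE1dn cells, a log2 difference of -0.83 (SE 0.19; adjusted p = 0.0097 by limma). A second IFI44 probe set read 2.0 to 6.35 units on every array, and averaging both probe sets gave -0.13 (adjusted p = 0.70 by limma). The call was also lost on leaving out IRE1dn array 2 (0.056).

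OASL, a relative of the oligoadenylate synthetases that enhances RIG-I signalling, measured 126, 96.6 and 92.8 units in controls and 26.0, 30.9 and 25.6 in IRE1dn cells. The groups stood far apart, and both probe sets of the gene gave the same picture, with log2 differences of -1.86 (SE 0.21; adjusted p = 0.00032 by limma) and -1.89. None of the synthetases themselves passed. OAS3 measured 19.3, 29.6 and 33.4 units in controls and 45.2, 38.7 and 52.0 in IRE1dn cells, all higher, with a log2 difference of 0.71 (SE 0.26; adjusted p = 0.058 by limma). OAS1 and OAS2 were under 14 units on every array and were not tested. OAS1, OAS3 and OAS2 are neighbours on chromosome 12.

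RIGI, the cytosolic sensor of viral RNA formerly named DDX58, measured 42.4, 35.0 and 29.9 units in controls and 13.3, 7.67 and 8.35 in IRE1dn cells. On IRE1dn arrays 2 and 3 it was under the filter level and on array 1 just above it. The log2 difference was -1.72 (SE 0.29; adjusted p = 0.0022 by limma), and -1.01 with a pseudocount of 16. The related sensor IFIH1 was dimmer, with means of 14.4 ± 7.96 and 8.80 ± 1.82 units (SD, n = 3 each), and overlapped between the groups.

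IFI16, a nuclear sensor of DNA, measured 663, 611 and 508 units in controls and 190.1, 217 and 201 in IRE1dn cells. It was the brightest of the members that fell, and the groups were well separated. The log2 difference was -1.54 (SE 0.16; adjusted p = 0.00026 by limma), and its other probe sets changed by -1.74 and -1.21. The coding gene beside it on chromosome 1, AIM2, another DNA sensor of the same family, was also lower, as given with the sensing genes.

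TRIM22, an antiviral ubiquitin ligase, measured 415, 303 and 430.3 units in controls and 129, 160.5 and 161 in IRE1dn cells, a log2 difference of -1.33 (SE 0.19; adjusted p = 0.0011 by limma). Every IRE1dn array was below every control. IFI35, an interferon-induced leucine zipper protein, measured 73.1, 49.3 and 77.6 units in controls and 20.8, 30.99 and 34.6 in IRE1dn cells, without overlap (-1.16, SE 0.27; adjusted p = 0.0094 by limma).

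**Figure D2:**
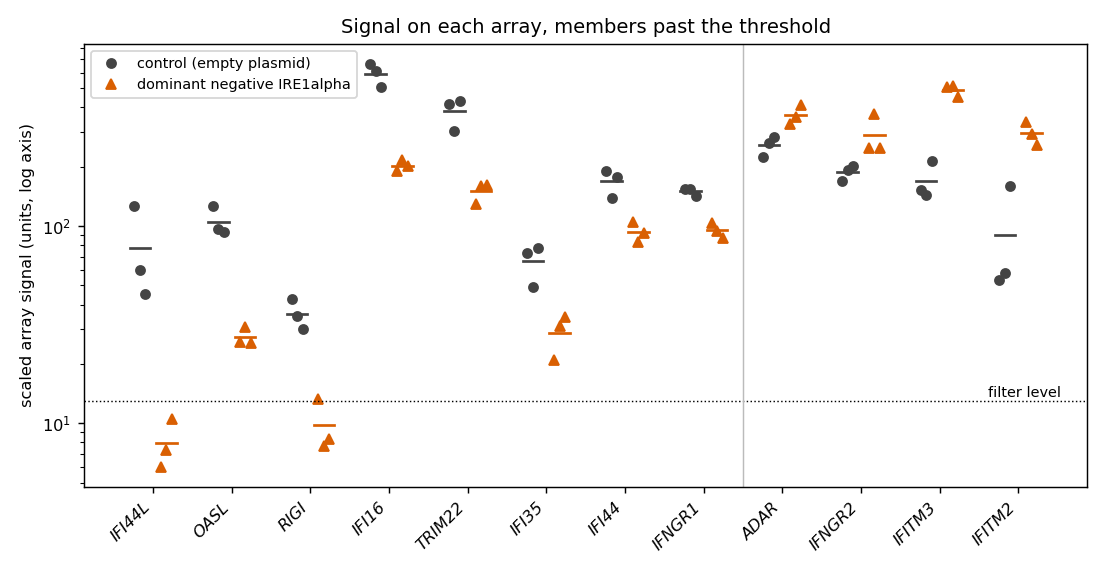
Scaled array signal (log axis, units) of the 12 members past the threshold on each of 3 control (circles) and 3 IRE1dn (triangles) arrays; short lines are group means and the dotted line is the filter level of 12.97 units. For all 12 genes the arrays of the groups do not overlap, as for 50.2% of all genes tested, and IFI44L falls from a mean of 77.0 to 7.95 units. The 12 were chosen by this comparison, so their separation is not a result.

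Both tested interferon-induced transmembrane proteins, IFITM2 and IFITM3, rose. These small proteins block the entry of enveloped viruses. IFITM3 measured 152, 144 and 215 units in controls and 508, 515 and 451 in IRE1dn cells, each far above every control. The mean rose from 170.2 ± 38.7 to 491 ± 35.4 units (SD, n = 3 each). The log2 difference was 1.54 (SE 0.19; adjusted p = 0.00049 by limma). IFITM2 measured 53.1, 57.7 and 159 units in controls and 336, 293 and 257 in IRE1dn cells. Control array 3 was the highest control here too, and the groups did not overlap. The log2 difference was 1.87 (SE 0.36; adjusted p = 0.0045 by limma).

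IFITM1, dimmer and not tested, measured 7.85, 7.58 and 10.5 units in controls and 16.0, 20.3 and 14.3 in IRE1dn cells, with a log2 difference of 0.84 (SE 0.33; adjusted p = 0.11 by limma with all genes kept). A probe set naming both IFITM2 and IFITM1 read 15.2, 7.87 and 17.3 units in controls and 24.2, 32.8 and 21.1 in IRE1dn cells. All 4 probe sets were thus higher in value on every IRE1dn array. The IFITM genes are closely related neighbours on chromosome 11, and the probe sets of IFITM2 and IFITM3 end in x_at, a type that can bind related transcripts, so the share of each gene in these signals is uncertain. Of the other membrane effectors, BST2 (tetherin) and RSAD2 (viperin) read under 4 units on every array.

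Of the enzymes that act on RNA with paired strands, ADAR was higher and EIF2AK2 just missed the threshold. ADAR, which edits adenosine in such RNA, measured 224, 263 and 282 units in controls and 330.5, 359 and 412 in IRE1dn cells, a log2 difference of 0.52 (SE 0.17; adjusted p = 0.040 by limma). The groups did not overlap, but the call was lost in each fit without 1 array except control array 3 (adjusted p from 0.060 to 0.16 by limma), with arrays set to equal medians (0.085) and without the intensity trend (0.058). EIF2AK2, the kinase PKR that stops translation on sensing such RNA, did not pass with its brightest probe set. It measured 116, 121 and 145 units in controls and 207, 202 and 154 in IRE1dn cells (0.55, SE 0.19; adjusted p = 0.051 by limma). Its other probe set gave 0.72. The gene passed in 5 of the other settings: the mean of all probe sets (0.021), no s_at and x_at probe sets (0.018), the 60th percentile filter (0.047), array weights (0.024) and without control array 3 (0.030). ISG20, a nuclease, was under 10 units on every array.

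Several of the best-known interferon-induced genes did not pass. ISG15, a ubiquitin-like modifier, measured 127, 59.6 and 87.7 units in controls and 63.8, 47.4 and 38.5 in IRE1dn cells. Control array 2 lay inside the IRE1dn range, and the log2 difference was -0.82 (SE 0.30; adjusted p = 0.058 by limma). It passed with arrays set to equal medians (0.037) and with quantile normalization (0.0495). USP18, which removes ISG15 and damps the type I receptor, had a log2 difference of -0.21 (SE 0.40). Of the IFIT family, which binds viral RNA, IFIT1, IFIT3 and IFIT5 had log2 differences of -0.67, -0.15 and 0.18 and none passed in limma, with 0 also at an unadjusted p under 0.05. IFIT2 was too dim to be tested. MX2, GBP1 and GBP2, GTPases of the antiviral response, had values of 0.11, -0.19 and 0.24 and did not pass, and MX1 read under 10 units on every array. Among the nuclear body proteins, SP100, PML and SP110 had values of -0.35, -0.53 and 0.10 and did not pass, although the arrays of SP100 did not overlap between the groups. All 5 SP100 probe sets had a log2 difference below 0, while 5 of 8 PML probe sets had one above 0. Without IRE1dn array 1, PML passed with a log2 difference of -0.91 (adjusted p = 0.043 by limma). IFI6, a mitochondrial survival protein, had a log2 difference of 0.65 (SE 0.35; adjusted p = 0.17 by limma), and IFI27 read under 5 units on every array. Of 15 members with more than 1 probe set, all probe sets of 12 went in 1 direction, the exceptions being IFI44, IFNAR2 and PML.

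The controls were uneven in these genes. Control array 2 was the lowest control for 16 of the 31 tested members and the highest for 1, while over all genes tested it was the lowest for 26.4% and the highest for 34.8%. The highest control was array 3 for 17 of the 31 members, and for 34.1% of all genes tested. IFIT1 is an example, at 35.5, 4.89 and 42.2 units on control arrays 1 to 3, against 18.1, 8.23 and 11.8 on the IRE1dn arrays. Without control array 2, IFIT1 passed with a log2 difference of -1.54 (adjusted p = 0.012 by limma) and ISG15 passed as well. In that fit 10 members were lower and 2 higher, and the median difference of the effectors was -0.48. For a gene in which array 2 was the lowest control, leaving it out lowers the difference by construction. These moves are therefore not a separate result. In log2 units from the control mean, the median of the 31 members was 0.16, -0.19 and 0.19 on control arrays 1 to 3 and -0.36, -0.20 and -0.24 on IRE1dn arrays 1 to 3. In this median control array 2 lay close to IRE1dn array 2, and all 3 IRE1dn arrays were lower than each control. That order did not hold for the 24 tested effectors alone. Their median was -0.22 on control array 2, below the -0.20 and -0.12 of IRE1dn arrays 2 and 3. The log2 SD of a member had a median of 0.31 among controls and 0.22 among IRE1dn arrays, and 22 of the 31 had the larger SD in controls (71.0%, as against 70.9% of all genes).

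**Figure D3:**
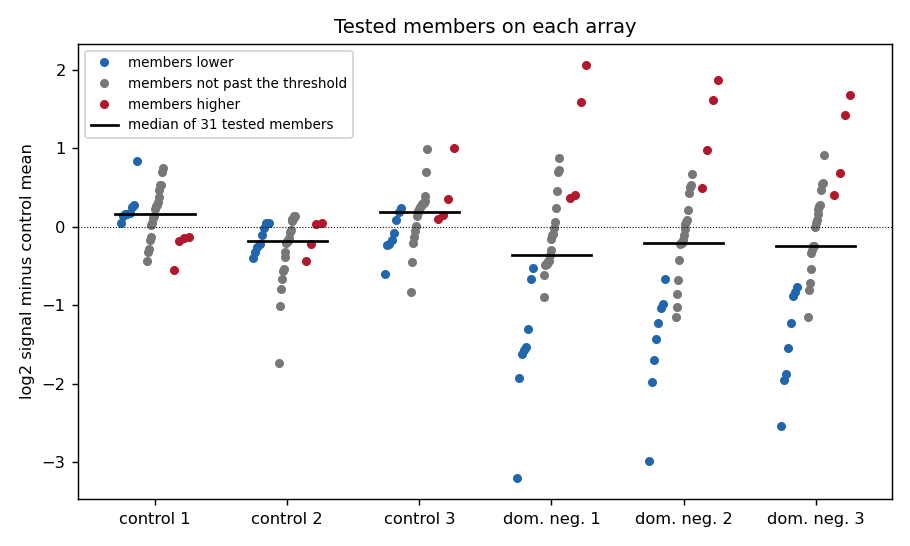
Log2 signal of each of the 31 tested members minus its mean over the 3 controls (vertical axis) on each of the 6 arrays; points are members, coloured by outcome, and black lines are medians. The median on control array 2, -0.19, is close to the -0.20 of IRE1dn array 2; the blue and red points were chosen by this comparison, so their separation is not a result.

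The 12 calls were of unequal firmness. Over 19 other settings of the pseudocount, filter, scaling, probe set, variance model and arrays used, 6 of the 8 lower members passed in every setting that tested them: IFI44L, OASL, RIGI, IFI16, TRIM22 and IFI35. Of the 4 higher members, IFITM2 and IFITM3 did so, with log2 differences of 1.59 to 2.37 and 1.43 to 1.72. IFI44L, RIGI, TRIM22, IFI35, IFITM2 and IFITM3 have 1 probe set each, so settings of the probe set could not change their log2 differences. IFI44L and RIGI had IRE1dn means under the filter level and were tested only through their higher control signals. The size of both differences depended on the pseudocount. The count of higher members was 2 without any single IRE1dn array or without control array 1 or 2, and 6 without control array 3.

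**Figure D4:**
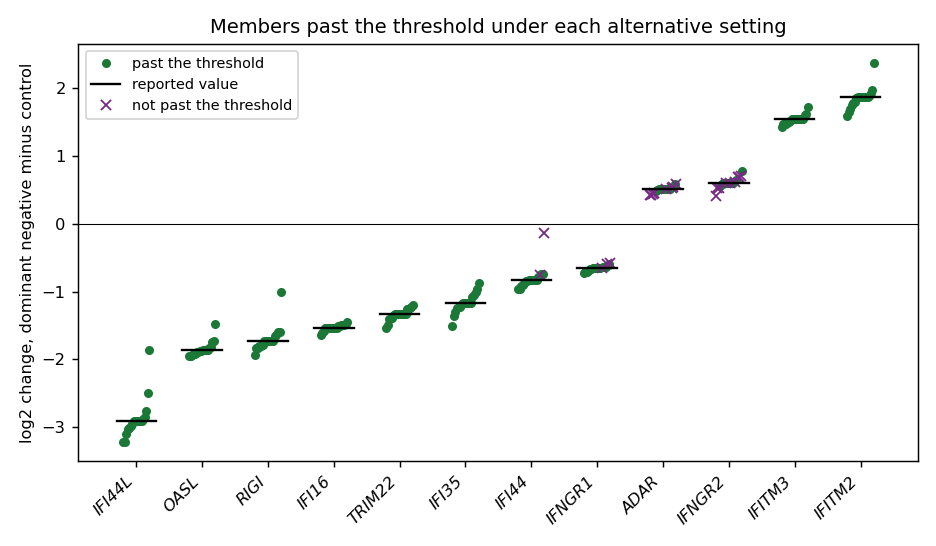
Log2 difference (vertical axis) of the 12 members past the threshold under each alternative setting; green circles passed a limma adjusted p of 0.05, purple crosses did not, and black lines are the reported values. ADAR, IFNGR2, IFNGR1 and IFI44 lose the call in some settings, and no member among the 12 changes sign.

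Other genes of the pathway were read from lists of ligands, signalling, sensing and further induced genes, chosen with earlier results of these data known. Of 74 with a probe set, 39 were tested; 12 were lower and 0 higher (limma; 12 and 0 also at an unadjusted p under 0.05), beside 16.5% lower and 17.9% higher over all genes. All 14 interferon ligands with a probe set were under the filter level in both groups, with a summed signal of 19.8 to 33.6 units in controls and 23.2 to 28.5 in IRE1dn cells.

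In the list of JAK-STAT signalling and other IRFs, 3 of 11 tested genes were lower (27.3%, beside 16.5% of all genes). None was higher (beside 17.9% of all genes), and the median log2 difference was 0.02. IRF3, the factor that starts interferon production, measured 102, 112 and 102 units in controls and 66.9, 43.8 and 47.8 in IRE1dn cells, without overlap (-0.99, SE 0.21; adjusted p = 0.0070 by limma). JAK2, a kinase of the interferon gamma receptor, changed by -0.87 (SE 0.27; adjusted p = 0.031 by limma) and IL10RB, a receptor chain shared by interleukin-10 and type III interferons, by -0.78 (SE 0.25; 0.034). Both calls were lost when any 1 array other than control array 3 was left out and with no filter (adjusted p = 0.061 for JAK2 and 0.051 for IL10RB by limma). That of JAK2 was also lost with the mean of all probe sets (0.053) and without s_at and x_at probe sets (0.13). JAK1 and TYK2, the kinases of the type I receptor, had log2 differences of 0.08 and 0.13 and did not pass.

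In the nucleic acid sensing list, 2 of 9 tested genes were lower (22.2%, beside 16.5% of all genes). None was higher (beside 17.9% of all genes), and the median was -0.06. AIM2, a sensor of cytosolic DNA that starts inflammasome assembly, measured 278, 139.9 and 153 units in controls and 26.4, 28.8 and 21.4 in IRE1dn cells. Each IRE1dn array was far below each control, and the log2 difference was -2.76 (SE 0.28; adjusted p = 0.00019 by limma). MYD88, an adaptor of Toll-like receptors, changed from 233 ± 8.64 to 164 ± 4.15 units (SD, n = 3 each; -0.50, SE 0.16; adjusted p = 0.033 by limma), and its call was lost on leaving out control array 2 or any IRE1dn array. MAVS and TBK1, through which RIGI signals, had log2 differences of 0.42 and -0.04 and did not pass.

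In the list of further interferon-induced genes, 7 of 19 tested were lower (36.8%, beside 16.5% of all genes). None was higher (beside 17.9% of all genes), and the median was -0.26. CASP1, the inflammasome protease, measured 84.3, 71.4 and 66.8 units in controls and 9.37, 11.8 and 15.0 in IRE1dn cells (-2.47, SE 0.25; adjusted p = 0.00018 by limma). GCH1, which starts tetrahydrobiopterin synthesis, measured 152, 235 and 81.0 units in controls and 47.1, 42.0 and 43.3 in IRE1dn cells (-1.66, SE 0.33; 0.0051). UBE2L6, the enzyme that conjugates ISG15, measured 535, 233 and 405 units in controls and 161, 150.5 and 148 in IRE1dn cells (-1.26, SE 0.27; 0.0071). TRIM5, a capsid-binding restriction factor, changed by -1.19 (SE 0.25; 0.0060), and lies on chromosome 11 with 3 coding genes between it and TRIM22. None of these 4 overlapped between the groups, as was so for 50.2% of all genes tested. The 4 were chosen by this comparison, so their separation is not a result. The mean of CASP1 in IRE1dn cells lay under the filter level, as did the control mean of SP140, which did not pass. The other three that were lower were NMI, TRIM21 and HERC6.

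**Figure D5:**
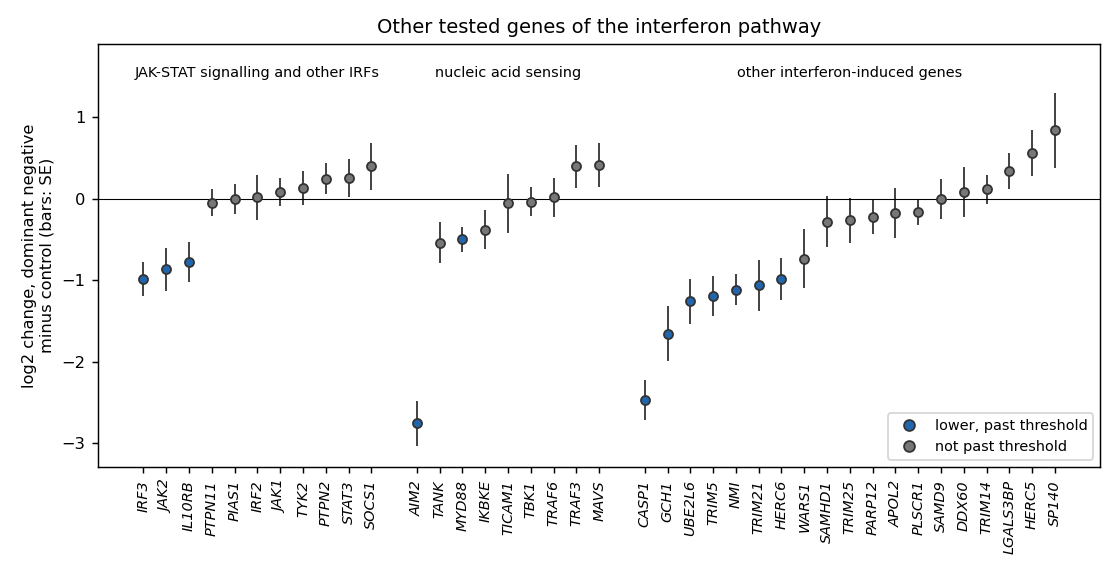
Log2 difference (IRE1dn minus control, vertical axis, bars are SE) of the 39 tested genes of the other pathway lists; blue points were lower and past the threshold and grey points did not pass. AIM2 (-2.76) and CASP1 (-2.47) lie lowest, and no gene of these lists was past the threshold in the other direction. The mean of CASP1 in IRE1dn cells was under the filter level.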

How the data were processed

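Total RNA of 6 samples was hybridised to Affymetrix arrays, 1 per sample. Each deposited table column holds the linear intensities of 22277 probe sets, from GCOS 1.2 per the submitters' processing notes, with no summarisation or background step stated in the sources used here. The arrays were already scaled to an equal trimmed mean, so a change shared by all transcripts would not be seen, and the number of arrays limits the precision. Gene names came from the platform annotation, updated through RefSeq GRCh38.p14: 19064 probe sets had 1 gene symbol (19052 matched to RefSeq), 1043 had several and 2108 had none listed.

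Here 1.75, the 20th percentile of all values, was added as a pseudocount before taking log2, which shrinks the changes of dim genes. Each gene was read from its brightest probe set on average. Genes above the 40th percentile of that mean were tested with limma 3.58.1 in R 4.3.3 (lmFit, eBayes with an intensity trend, no covariate, two-sided), with Benjamini-Hochberg adjustment over all genes tested and a threshold of 0.05. Changes are IRE1dn minus control. Members under the filter have values from the same fit without it. No set test was run. The limma script was tested on simulated data. The members and lists were chosen with earlier results of these data known. All 43 members were to be named where measured, with values on every array for those past the threshold, the receptors and the factors, and up to 4 called genes of each other list with the largest changes; per-array values of further members were added after they were seen. Members not named with a probe set are not analysed here.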

Additional observations from a re-analysis of the deposited data

How the results depend on the processing

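The 8 members called lower numbered 4 with a 60th percentile filter, which left 14 members to test, and 6 to 10 when 1 array was left out; they numbered 10 with equal medians and with quantile normalization, ISG15 and IRF9 being added. The 4 called higher numbered 2 with arrays set to equal medians, 7 with the mean of all probe sets, and 2 to 6 when 1 array was left out. Genes called of all tested numbered 1440 to 2663 when 1 array was left out, with 1440 without IRE1dn array 2 and 1500 without array 3. Median differences with 1 array left out were -0.48 to -0.10 for effectors, -0.22 to -0.035 for receptors and -0.43 to -0.12 for IRF factors. The effector median was 0.097 with the 60th percentile filter, where that of the receptors was -0.31 and no IRF factor was left, and the receptor median was -0.024 with the mean of all probe sets. Without both IRE1dn array 3 and control array 2, chosen after seeing the data, 1203 genes were called, 8 members lower and 2 higher, and the effector median was -0.54. The cause of these moves was not tested, except that the stricter filter tests fewer genes.

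Same-numbered arrays of the groups did not deviate together (correlations over genes of -0.10, 0.061 and 0.025). With so few arrays this check cannot exclude that same-numbered samples were handled together, and the labels do not say. With the replicate number as a block, 2276 genes passed, with 9 members lower and 4 higher; ISG15 was the added member, and MYD88 of the other lists lost its call (adjusted p = 0.067 by limma). Of the members, 9 changed sign in some setting, none of them past the threshold in the reported fit. IFNAR1 was -0.056 with equal medians and -0.061 with quantile normalization. PML was 0.0050 with the mean of all probe sets and 0.22 without s_at and x_at probe sets. With array weights IRF7 was 0.13 and USP18 0.12. With 1 array or both arrays named above left out, IFNAR1 ranged from -0.12 to 0.16, IRF7 from -0.22 to 0.19, USP18 from -0.72 to 0.14, IFIT3 from -0.33 to 0.039, MX2 from -0.30 to 0.46, GBP1 from -0.66 to 0.043, GBP2 from -0.15 to 0.46 and SP110 from -0.037 to 0.23. Signals near the filter level limit what can be read from the dim members.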

Other observations

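Of the pathway genes left out by the filter, TLR3 and LGALS9, chosen after their values were seen, passed in the fit without the filter. TLR3, an endosomal receptor of viral RNA, measured 23.7, 13.3 and 31.02 units in controls and 6.68, 4.26 and 5.73 in IRE1dn cells, a log2 difference of -1.68 (SE 0.39; adjusted p = 0.016 by limma). LGALS9, a galectin induced by interferon, measured 1.83, 1.42 and 1.34 units in controls and 4.29, 8.39 and 13.3 in IRE1dn cells, a log2 difference of 1.57 (SE 0.40; adjusted p = 0.024 by limma). The mean of TLR3 in IRE1dn cells and both means of LGALS9 lie under the filter level, where the pseudocount shrinks a difference.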
